A study of Mus musculus with 12 samples.

Results

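The 3 transcripts described here are uc007cat.2, uc008bsm.1 and uc009fgs.1. They are short transcripts with fewer ribosome footprints relative to their mRNA in eyes of mice lacking RNG140 than in wild-type eyes. They are 3 of 63759 UCSC transcript identifiers in the deposited tables, and 3 of the 25927 features for which the ratio of footprints to mRNA could be tested. They were chosen by that ratio. Among features with a lower ratio in the knockout, they ranked 1, 2 and 3 by the p-value of the change when edgeR's default filter for low counts was also applied. Their lower ratio is therefore a description here and carries no test.

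Ribosome profiling digests RNA that ribosomes do not cover and sequences the protected fragments, so the footprints of a transcript count the ribosomes engaged on it. RNA-seq of the same kind of sample counts the mRNA itself. The ratio of both is widely used as translation efficiency, and it is lower when footprints are fewer, when mRNA is more abundant, or when both hold. RNG140, also called Caprin2, is an RNA-binding protein of RNA granules, assemblies of mRNAs and proteins in the cytoplasm.

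Eyes were taken at postnatal day 0.5 from wild-type mice (WT in the labels) and from RNG140 knockout mice (RNG140KO, written KO here). Each genotype has 3 footprint and 3 mRNA libraries, numbered 1 to 3, or 12 libraries in all. The labels give no strain, sex, litter or knockout allele, and nothing says that the libraries came from separate animals, so any p-value measures only the spread between libraries. The library totals ran from 666464 to 1244104 counts for mRNA and from 327847 to 5966639 for footprints, and WT footprint libraries 1 and 2 were the shallowest of their kind. The sources used here do not pair the identifiers with genes, so the roles of the 3 transcripts, the eye's marker genes and the targeted gene were not analysed here.

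Each transcript carries a listed length whose unit is not stated. It is 160 for uc007cat.2, 157 for uc008bsm.1 and 178 for uc009fgs.1, against a median of 451 over the tested features. Only 9.27% of these features are shorter than 157 and 12.1% are shorter than 178, so the word short in their description holds on this scale. Levels are given as CPM, read counts scaled to a common library total. Averaged over 6 libraries and divided by listed length, mRNA stood at 10.8 CPM per 100 units of length for uc007cat.2, 6.18 for uc008bsm.1 and 6.44 for uc009fgs.1. On the same scale footprints stood at 20.7, 9.77 and 5.29. The mRNA levels were modest: the mean mRNA CPM of the 3 transcripts, not divided by length, exceeded that of 56.0%, 36.5% and 42.0% of tested features. For mean footprint CPM the shares were higher, at 87.6%, 69.9% and 54.2%.

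The lower ratio came from both assays in uc007cat.2 and uc009fgs.1, and from mRNA alone in uc008bsm.1. In all 3 transcripts, every KO mRNA library lay above every WT mRNA library. Footprints of uc007cat.2 and uc009fgs.1 were lower in every KO library than in any WT library, whereas those of uc008bsm.1 overlapped between the genotypes. In bulk tissue, fewer cells of a type and less RNA per cell cannot be told apart.

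**Figure D1:**
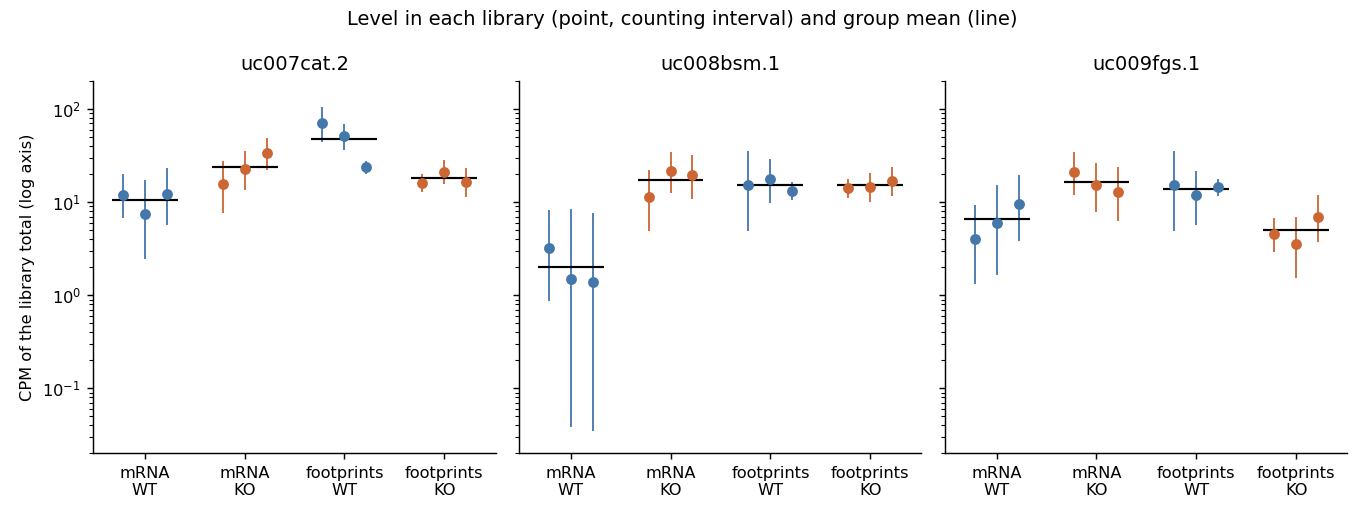
CPM of each transcript (log axis) in each mRNA and footprint library of WT (blue) and KO (orange). Libraries 1, 2 and 3 run from left to right within a group, vertical lines are exact 95% Poisson intervals for counting error, and black lines are group means. The mRNA points of KO lie above those of WT in each panel, while the footprint points of uc008bsm.1 overlap, with means of 15.4 CPM in WT and 15.3 in KO.

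The mRNA of uc007cat.2 was 12.1, 7.50 and 12.4 CPM in WT libraries 1, 2 and 3, and 15.5, 22.6 and 33.7 CPM in KO. The groups did not overlap, although KO library 1 was close to the upper WT values. The means were 10.6 ± 2.72 CPM in WT and 23.9 ± 9.14 in KO (SD, n = 3), a 2.25-fold difference. These values rest on 29 WT and 55 KO reads over 3 libraries each, and the ratio of the summed counts, scaled to the library totals, was 2.20, with an exact 95% interval for counting error of 1.38 to 3.58.

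The footprints of uc007cat.2 were 70.2, 50.8 and 23.6 CPM in WT and 16.2, 21.2 and 16.5 CPM in KO. WT library 3 was well below the other WT libraries and lay just above KO library 2, so the groups were separated only narrowly. The means were 48.2 ± 23.4 CPM in WT and 18.0 ± 2.79 in KO (SD, n = 3), 2.68-fold lower in KO. The high values were those of the 2 shallowest libraries, and the part of depth in this difference was not tested. The ratio of the summed counts, KO over WT, was 0.601, with an exact 95% interval for counting error of 0.488 to 0.741. WT library 3 holds 141 of the 207 WT reads, and this ratio shows a smaller difference than that of the means, 0.373. With library totals replaced by TMM effective library sizes, which correct for a few very abundant features, the gap was wider, with WT between 56.0 and 70.7 CPM and KO between 23.6 and 32.0. In an edgeR fit of footprints alone with TMM, the log2 change of KO over WT was -1.20. With WT represented by library 3 alone, a run added after the data were seen, it was -0.90.

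The mRNA of uc008bsm.1 was 3.22, 1.5 and 1.37 CPM in WT, from 4, 1 and 1 reads. In KO it was 11.3, 21.4 and 19.4 CPM, from 8, 17 and 15 reads. Even KO library 1, the lowest of its group, was well above WT library 1, the highest of its own. The means were 2.03 ± 1.03 CPM in WT and 17.4 ± 5.36 in KO (SD, n = 3). The summed counts, 6 in WT and 40 in KO, gave a 7.73-fold difference with an exact 95% interval for counting error of 3.26 to 22.3.

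The footprints of uc008bsm.1 were 15.3, 17.7 and 13.2 CPM in WT and 14.2, 14.6 and 17.1 CPM in KO. The groups overlapped throughout. The means were 15.4 ± 2.24 CPM in WT and 15.3 ± 1.57 in KO (SD, n = 3), a smaller difference than the SD of either group. The ratio of the summed counts, KO over WT, was 1.07, with an exact 95% interval for counting error of 0.823 to 1.40.

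The mRNA of uc009fgs.1 was 4.02, 6.0 and 9.61 CPM in WT and 21.1, 15.1 and 12.9 CPM in KO. The groups did not overlap, and WT library 3 came nearest to KO. The means were 6.54 ± 2.83 CPM in WT and 16.4 ± 4.25 in KO (SD, n = 3), a 2.51-fold difference that rests on 16 WT and 37 KO reads. The ratio of the summed counts was 2.68, with an exact 95% interval for counting error of 1.45 to 5.16.

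The footprints of uc009fgs.1 were 15.3, 11.8 and 14.4 CPM in WT and 4.55, 3.53 and 6.93 CPM in KO. The groups did not overlap, and KO library 3 came nearest to WT. WT library 1 rests on 5 reads and WT library 2 on 10. The exact 95% interval for counting error of WT library 1, 4.95 to 35.6 CPM, overlapped that of KO library 3, 3.69 to 11.9. The means were 13.8 ± 1.797 CPM in WT and 5.0 ± 1.75 in KO (SD, n = 3), 2.76-fold lower in KO. The ratio of the summed counts, KO over WT, was 0.337, with an exact 95% interval for counting error of 0.233 to 0.483. How close the WT libraries lie to one another depends on the scaling: with TMM effective library sizes they were 13.8, 16.4 and 34.2 CPM, against 8.98, 5.09 and 9.88 in KO, still without overlap.

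These separations were read against how often they occur. mRNA was higher in every KO library than in every WT library for 3 of 3 transcripts, for 10.3% of the 25927 tested features, and for 15.3% of the 7095 features with a listed length from 100 to 300. Footprints were lower in every KO library for 2 of 3, for 6.81% of all tested features and for 7.29% of those in the length range. Both held together in uc007cat.2 and uc009fgs.1, and in 0.181% of all tested features and 0.24% of those in the length range. Since the ratio that chose the transcripts joins these same values, the counts describe the members and support nothing further.

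To follow the ratio library by library, footprints were divided by mRNA within each genotype and number; the labels give the numbers but not whether they mark a shared sample. For uc007cat.2 the footprint CPM was 5.82, 6.77 and 1.91 times the mRNA CPM in WT samples 1, 2 and 3, and in KO 1.04, 0.935 and 0.491 times. WT sample 3 was the lowest of its group, and its exact 95% interval for counting error, 0.980 to 4.27, overlapped those of KO samples 1 and 2. For uc008bsm.1 the ratio was 4.74, 11.8 and 9.65 for WT samples 1, 2 and 3, and 1.26, 0.681 and 0.879 for KO. The WT ratios of uc008bsm.1 have very wide intervals, up to 1.82 to 496.8 in sample 2, because their denominators are 1 to 4 reads. For uc009fgs.1 the ratio was 3.79, 1.97 and 1.5 in WT and 0.215, 0.234 and 0.536 in KO.

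**Figure D2:**
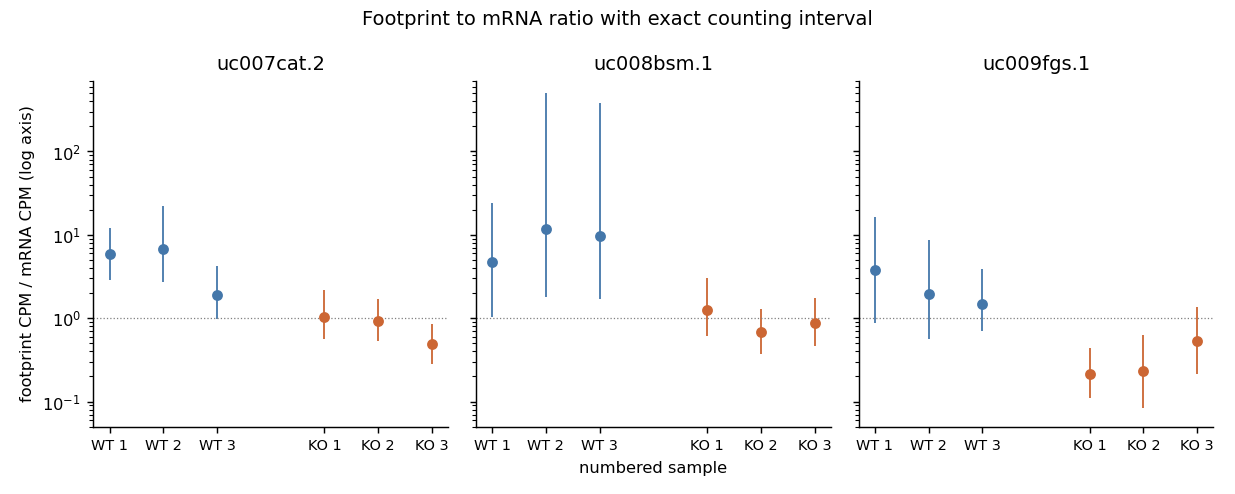
Footprint CPM divided by mRNA CPM (log axis) in each numbered sample, with exact 95% intervals for counting error. WT samples are blue and KO samples orange, and the dotted line marks a ratio of 1. Points of both genotypes are apart in each panel, with the smallest gap for uc007cat.2, between 1.91 in WT sample 3 and 1.04 in KO sample 1.

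The mean log2 ratio, with 2 counts added to each value, went from 1.83 ± 1.01 in WT to -0.46 ± 0.50 in KO for uc007cat.2 (SD, n = 3). It went from 2.01 ± 0.25 to -0.29 ± 0.34 for uc008bsm.1, and from 0.94 ± 0.87 to -1.75 ± 0.70 for uc009fgs.1. Every KO sample was below every WT sample in 3 of 3 transcripts, as in 6.28% of all tested features and 10.7% of those with a listed length from 100 to 300. Where the groups of both assays are apart, as in uc007cat.2 and uc009fgs.1, any pairing of libraries gives this order. For uc008bsm.1, with each of the 3 footprint libraries of a genotype set against each of its 3 mRNA libraries, the 9 log2 ratios ran from 1.49 to 2.37 in WT and from -0.72 to 0.36 in KO.

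The split between mRNA and footprints was measured in 1 edgeR model of all 12 libraries, in which the changes of both assays add up to the change of the ratio. All changes are log2 of KO over WT on TMM-scaled counts. For uc007cat.2 the ratio changed by -2.45 (SE 0.52), made of 1.33 (SE 0.40) in mRNA and -1.12 (SE 0.32) in footprints, so mRNA accounted for 54.3% of it. For uc009fgs.1 the ratio changed by -3.14 (SE 0.66), made of 1.55 (SE 0.51) in mRNA and -1.58 (SE 0.42) in footprints, a share of 49.6% for mRNA. For uc008bsm.1 the ratio changed by -3.14 (SE 0.67), made of 3.10 (SE 0.56) in mRNA and -0.04 (SE 0.35) in footprints, a share of 98.6% for mRNA. For uc007cat.2 and uc009fgs.1 the larger part turned with the scaling. With library totals mRNA made up 46.5% of the change for uc007cat.2 and 48.2% for uc009fgs.1, with TMM from features of listed length 100 to 300 it made up 42.1% and 43.0%, and with DESeq2 size factors 56.0% and 51.1%. For uc008bsm.1 the share of mRNA was at least 96.9% under each of these. The same size of change in the ratio thus stood for different changes underneath in uc008bsm.1 and uc009fgs.1.

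**Figure D3:**
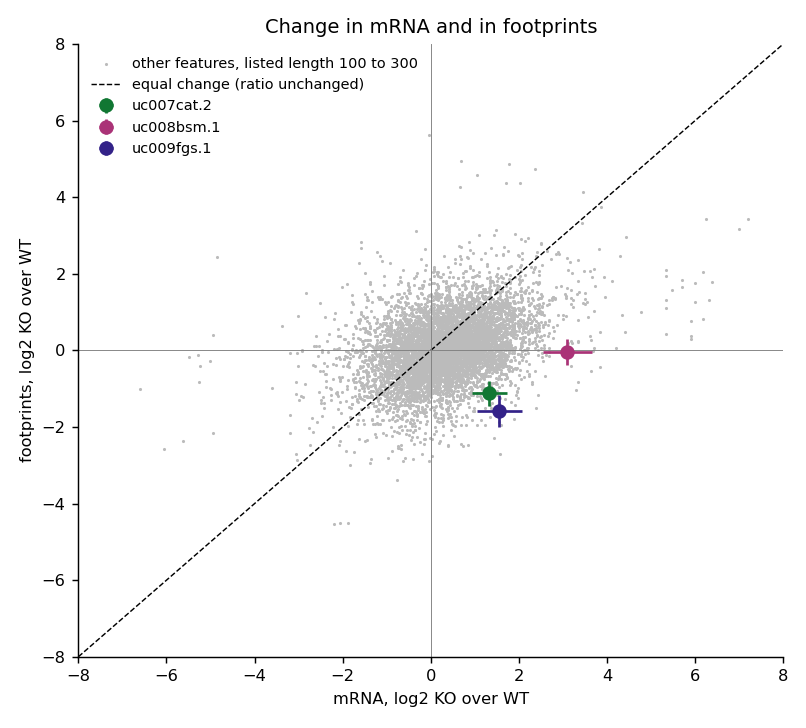
Log2 change (KO over WT) of footprints against that of mRNA in the 12-library model for features with a listed length from 100 to 300 (grey) and the 3 transcripts (coloured, bars are ± 1 SE). The dashed line marks equal change, and distance below it is a lower ratio. uc008bsm.1 sits at 3.10 in mRNA and near 0 in footprints, and the other transcripts sit to the right of 0 and below 0.

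With TMM over all tested features, short features as a class had somewhat more mRNA in KO relative to tested features as a whole. The 3 transcripts were set beside features of like size for that reason. Over the 7095 features with a listed length from 100 to 300, the median log2 change was 0.33 in mRNA, 0.05 in footprints and -0.32 in the ratio. The mRNA change of uc007cat.2 was exceeded by 15.4% of them and that of uc009fgs.1 by 10.7%, so increases of that size in mRNA were common among short features. That of uc008bsm.1 was exceeded by 1.03%. In footprints 7.47% of the class had a more negative change than uc007cat.2 and 2.79% had a more negative one than uc009fgs.1, while uc008bsm.1 stood near the middle, at 45.0%. In the ratio, 1.82%, 0.677% and 0.691% of the class lay below uc007cat.2, uc008bsm.1 and uc009fgs.1.

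When each assay was fitted alone, the filter for low counts kept all 3 transcripts in footprints but only uc007cat.2 in mRNA, since uc008bsm.1 and uc009fgs.1 had too few mRNA reads. In mRNA the change of uc007cat.2 was 1.42 (SE 0.41) and was called by edgeR, as were 9.16% of features in that direction. In footprints the changes were -1.20 (SE 0.36) for uc007cat.2, -0.05 (SE 0.36) for uc008bsm.1 and -1.57 (SE 0.42) for uc009fgs.1, and edgeR called none of the 3 lower, against 0.435% of features. The calls differed in the 12-library model, which shares 1 estimate of the spread between both assays. There edgeR called the mRNA of uc008bsm.1 higher but not that of uc007cat.2 or uc009fgs.1, against 1.79% of features, and it called the footprints of uc007cat.2 and uc009fgs.1 lower, against 2.87%. The choice of the transcripts used all of these values, so nothing is read from the calls. In the ratio itself the edgeR test called no feature lower (0%) or higher, with 2567 of 25927 features under an unadjusted p of 0.05 and 92 called by DESeq2.

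The scaling and 2 sets of libraries bore on the sizes. With TMM factors taken from features of listed length 100 to 300 only, the mRNA change of uc007cat.2 was 0.85, against 1.42. That scaling moved the median of all features in mRNA from 0.02 to -0.56, so the distance of uc007cat.2 from the median hardly moved. With WT mRNA represented by library 3 alone, the mRNA change of uc009fgs.1 was 0.80, against 1.55, and that of uc008bsm.1 was 3.61, against 3.10.

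The mean ratio over both genotypes is given as a description, with no p, because the WT and KO ratios that chose the transcripts also make up their mean. In the 12-library model the mean log2 ratio of footprints to mRNA was taken on TMM-scaled counts. It was 2.22 (SE 0.32) for uc008bsm.1, 1.65 (SE 0.26) for uc007cat.2 and 0.72 (SE 0.33) for uc009fgs.1. The ratio was higher in WT than in KO for each transcript, so WT raises these means more. On library totals the ratio of uc008bsm.1 was 4.74 to 11.8 in WT and 0.681 to 1.26 in KO. With TMM effective library sizes its footprints exceeded its mRNA in KO too, at 21.0 to 28.0 CPM against 9.79 to 19.8. The 40 KO mRNA reads of uc008bsm.1, not the 6 in WT, took it past the minimum of 10. Among features with a listed length from 100 to 300, 7.33% had a higher mean log2 ratio than uc008bsm.1. The shares above uc007cat.2 and uc009fgs.1 were 17.0% and 45.6%. The edgeR test called 22.7% of all tested features, and 38% of those in this length range, higher in footprints than in mRNA. A high mean ratio was therefore common among features of this length.

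This contrast compares 2 kinds of library and moves with the scaling between them. With library totals in place of TMM, the median of all features moved from -0.07 to -1.02 log2 units, and 1663 of 14782 calls were toward footprints, against 5874 of 11869. The mean log2 ratios then read 1.26 for uc008bsm.1, 0.81 for uc007cat.2 and -0.30 for uc009fgs.1, all above that median. With single libraries left out, the mean log2 ratio of uc009fgs.1 under TMM was lowest at 0.39, without WT footprint library 3. It was highest at 0.93, without WT mRNA library 3, and was 0.89 without WT footprint library 1.

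One of the 3 transcripts has a near twin in the tables. uc009fgq.1, listed 2 rows from uc009fgs.1 with a listed length of 179 against 178, has the same footprint count as uc009fgs.1 in each of the 6 footprint libraries, 147 reads in all. It was also the next feature after the 3 members in the order by which they were chosen, and it is named after its values were seen. The footprint values of uc009fgs.1 therefore cannot be told apart from those of uc009fgq.1, and whether the same reads were counted for both was not tested. Sharing of this kind is not rare, since 7.99% of the 25927 tested features have the same 6 footprint counts as another. No other identifier shares all 6 footprint counts with uc007cat.2 or uc008bsm.1, and none shares all 6 mRNA counts with any of the 3.

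**Figure D4:**
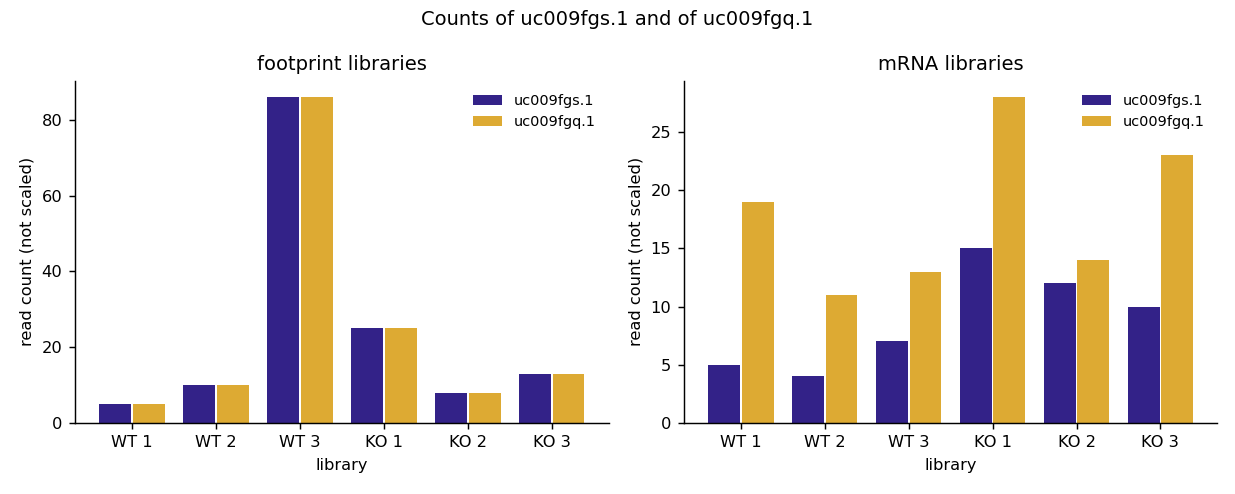
Read counts, not scaled, of uc009fgs.1 and uc009fgq.1 in the 6 footprint libraries (left) and the 6 mRNA libraries (right), from WT 1 to KO 3. The paired bars are equal in each footprint library, while uc009fgq.1 has more mRNA reads in each mRNA library, 43 against 16 over WT and 65 against 37 over KO.

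The mRNA counts of this pair differ, so the mRNA side of the lower ratio need not be the same. The mRNA of uc009fgq.1 was 15.3, 16.5 and 17.8 CPM in WT and 39.5, 17.6 and 29.8 CPM in KO. KO library 2 was thus within the WT range, so the groups overlapped, unlike those of uc009fgs.1. The means were 16.5 ± 1.28 and 29.0 ± 10.95 CPM (SD, n = 3), a 1.75-fold difference. In the 12-library model the mRNA change of uc009fgq.1 was 0.98 (SE 0.41) and that of its ratio -2.57 (SE 0.58), with -1.58 (SE 0.41) from footprints. The footprint side of the change rests on equal counts in both identifiers. The estimated mRNA side is smaller in uc009fgq.1, but the exact 95% intervals for the ratio of summed mRNA counts overlap. They were 1.17 to 2.64 for uc009fgq.1 and 1.45 to 5.16 for uc009fgs.1.

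The profiles of the 3 transcripts over the 12 libraries were compared as log2 CPM with 2 counts added. All correlations here are descriptions over 12 libraries that share 2 assays and 2 genotypes. Pearson's r was 0.71 between uc007cat.2 and uc008bsm.1, 0.52 between uc007cat.2 and uc009fgs.1, and 0.33 between uc008bsm.1 and uc009fgs.1. Outside the members, the feature most like uc008bsm.1 among 25924 was uc007rrg.3, of listed length 163 (r = 0.92), whose mRNA change was 3.65 and footprint change 0.28. The one most like uc009fgs.1 was uc012dpm.2, of listed length 246 (r = 0.93), with 1.501 in mRNA and -0.87 in footprints. The one most like uc007cat.2 was uc008gho.1, of listed length 175 (r = 0.86), with 1.796 in mRNA and -0.29 in footprints. These features had few mRNA reads too, between 26 and 47 over the 6 mRNA libraries.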

How the data were processed

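Per the labels, footprints came from RNase I digestion and ribosome pelleting, and mRNA libraries from a stranded TruSeq kit. The submitters' processing notes list the mm10 build with TopHat2 2.0.9, Bowtie2 2.3.4.2 and CASAVA 1.8. How reads were assigned is not given in the sources used here. Raw counts were deposited by the authors, 1 whole number per identifier and library, and libraries were grouped by their titles. Identifiers with equal counts in all 12 libraries were merged into 1 feature, leaving 32803. edgeR 4.0.16 quasi-likelihood tests (limma 3.58.1, R 4.3.3) used TMM, library sizes summed after filtering and Benjamini-Hochberg adjustment over all features, with adjusted p under 0.05 called. mRNA and footprints were fitted alone with edgeR's default low-count filter. The ratio was fitted over 12 libraries for features with at least 10 counts per assay, and standard errors were derived from the F statistic. Intervals cover counting error only (scipy 1.17.1). Alternatives included DESeq2 1.42.0, voom, other scalings and libraries left out. The scripts were tested on simulated data. Members and comparisons were chosen with earlier results of these data known. The text names the members and, for each, the feature of highest Pearson correlation over the 12 libraries.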

Additional observations from a re-analysis of the deposited data

How the results depend on the processing

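The ratio of each of the 3 transcripts stayed negative in all alternatives run, from -2.70 to -2.13 for uc007cat.2, from -3.69 to -2.80 for uc008bsm.1 and from -3.62 to -2.37 for uc009fgs.1, and their mRNA changes stayed positive. Beyond 1 SD between replicates, TMM from listed length 100 to 300 gave 0.85 for the mRNA of uc007cat.2, and 2.72 for the mRNA and -2.81 for the ratio of uc008bsm.1. Without WT mRNA libraries 1 and 2, uc008bsm.1 had 3.61 in mRNA and -3.64 in the ratio, and uc009fgs.1 had 0.80 in mRNA. Without WT footprint libraries 1 and 2, an alternative added after the data were seen, uc009fgs.1 had -2.03 in footprints and a mean ratio of 1.05. With library totals the footprint change of uc008bsm.1 (-0.05) was 0.0050, a reversal of a value near 0, and the mean ratio of uc009fgs.1 was -0.30. With a prior count of 0.5 the difference in log2 ratio of uc008bsm.1 was -2.82, against -2.30. With single libraries left out, footprints of uc008bsm.1 ran from -0.22 to 0.17 (reversed without WT library 3 or KO library 2) and of uc009fgs.1 from -1.74 to -1.05, the mRNA of uc008bsm.1 from 2.89 to 3.65, and the mean ratio of uc009fgs.1 from 0.39 to 0.93.

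Library totals put the median of all features at -0.27 in mRNA and 0.13 in the ratio, and TMM from listed length 100 to 300 put it at -0.56 and 0.25. Counts of features called moved more. For mRNA (2145, of which 1294 higher) they were 3883 with TMM from listed length 100 to 300 (472 higher), 1281 with DESeq2, 3991 with voom, 328 without WT mRNA libraries 1 and 2, and 652 to 4379 with single libraries left out; with library totals 866 of 3029 were higher. For footprints (193) they were 0 with library totals, 0 with TMM from listed length 100 to 300, 717 with DESeq2, 3772 with voom, 968 without the filter, 82 with every identifier separate, 1844 without WT footprint libraries 1 and 2, 81 with library sizes summed before filtering (also added after the data were seen), and 0 to 3057 with single libraries left out. For the ratio (0) they were 2 with DESeq2 size factors, 2 with TMM from listed length 100 to 300, 92 with DESeq2, 541 with voom, 5 without the filter, 1 with every identifier separate, 532 without WT footprint libraries 1 and 2, and 0 to 108 with single libraries left out. For the mean ratio (11869) the count was 6860 without WT mRNA libraries 1 and 2. The cause of these moves was not tested. Dropping libraries also leaves fewer samples, and the counts rose in some such runs and fell in others.

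No label states a pairing by number. Between libraries of equal number, the correlation of deviations from the group means was 0.0869 to 0.377 between assays in WT, 0.0217 to 0.0924 in KO and -0.376 to 0.125 between genotypes. With the number as a replicate block, 0 features were called in footprints and 3 in the ratio, and with each numbered sample as a block 321 in the ratio. Depth limits the mRNA side most, with 1 to 15 reads per WT library. Among footprints, WT library 1 had only 5 reads for uc008bsm.1 and 5 for uc009fgs.1.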

Other observations

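The rows beside the 3 transcripts in the deposited tables were looked at after the other values were seen. uc007cau.1, the row before uc007cat.2, has a listed length of 215 and more reads. Its mRNA was 55.8 ± 14.9 CPM in WT and 63.8 ± 4.04 in KO, with overlapping groups, and its footprints were 75.0 ± 22.8 and 46.9 ± 7.33 CPM (SD, n = 3). In the 12-library model its ratio changed by -0.89 (SE 0.49), with 0.37 (SE 0.35) in mRNA and -0.52 (SE 0.34) in footprints. uc009fgr.2, the row before uc009fgs.1, has a listed length of 475 and changed by -1.45 (SE 0.53) in the ratio, with 0.31 (SE 0.37) in mRNA and -1.14 (SE 0.38) in footprints. uc008bsn.2, the row after uc008bsm.1, has a listed length of 339 and changed by 0.10 (SE 0.55) in the ratio. uc007cav.1, the row after uc007cat.2, has a listed length of 1248; its mRNA changed by -1.40 (SE 0.41), opposite in sign to uc007cat.2, its footprints by -1.87 (SE 0.45) and its ratio by -0.47 (SE 0.60). uc009fgt.1, the next row with counts after uc009fgs.1, has a listed length of 534; its ratio changed by 0.65 (SE 0.55) and its footprints by 0.87 (SE 0.34), opposite in sign to uc009fgs.1, and its mRNA by 0.21 (SE 0.43). The row before uc008bsm.1, uc008bsl.2, had too few reads for a value. Whether these identifiers share reads with the 3 transcripts was not tested.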
